A study of Mus musculus with 16 samples.

Results

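Chemokines are small signalling proteins that draw cells carrying the matching receptor, and the genes described here are 10 of the 18167 genes measured: *Ccl2*, *Ccl3*, *Ccl4*, *Ccl5*, *Ccl6*, *Ccl9*, *Ccl12*, *Cxcl10*, *Cxcl16* and *Cx3cl1*. They were chosen with earlier results of these data known, as the chemokines of a diseased spinal cord. RNA was sequenced from the spinal cord of 16 male mice carrying a human *PFN1* transgene under the mouse prion protein promoter. *PFN1* encodes profilin, an actin-binding protein, and the G118V change in it is found in familial amyotrophic lateral sclerosis (ALS).

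All mice were of the C57BL/6N background. Mutant mice carried Tg(Prnp-PFN1*G118V)838Kiaei/J, and wild-type mice carried Tg(Prnp-PFN1)850Kiaei/J, the human gene without the change. The wild-type young group (WY) held 3 mice of 50 days, and the mutant young group (MY) held 3 mice of 50 days, before symptoms. The wild-type old group (WO) held 5 mice of 190 to 294 days. The mutant old group (MO) held 5 mice of 175 to 245 days at end stage, when a mouse laid on its side could no longer right itself. All 6 young mice were in library batch 1, while WO and MO each had 3 mice in batch 1 and 2 mice in batch 2. The 2 batch 2 mice of WO, WO4 and WO5, were also its 2 mice of 294 days, so batch and age cannot be told apart in them. The prion protein promoter is active in many cell types, and the strains differ in their insertion as well as in G118V, so a difference between genotypes is a difference between 2 transgenic lines.

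Levels are given as log2(1 + FPKM) as deposited (FPKM, fragments scaled to transcript length and to the mapped fragments of the library), and the table gives no count of the fragments behind a gene. The labels give the tissue as spinal cord. *Hoxc10*, a gene of the posterior body axis, lay at 3.94 to 4.47 on the log2 scale in the 16 mice, and *Emx1* and *Tbr1*, genes of the forebrain, were at or under 0.5 FPKM in all of them. *Neurod6* lay at 1.39 to 1.73 on the log2 scale, and *Emx2* was not in the table. MO5 went against the sex of its label. Its *Xist*, the RNA of the silenced X chromosome of females, was at 3.21 on the log2 scale against -0.36 to 0.37 in the other 15 mice. Its *Ddx3y*, a gene of the Y chromosome, was at 1.95 on the log2 scale against 4.06 to 4.74 in the other 15 mice. The reason was not tested, and the 9 chemokines that rose in MO below did so without MO5 as well.

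Chemokines fall into families by the spacing of their cysteines, and most are secreted while *Cxcl16* and *Cx3cl1* encode proteins anchored in the cell membrane that proteases can shed. *Ccl3*, *Ccl4* and *Ccl5* encode inflammatory chemokines that draw monocytes and T cells, *Ccl3* and *Ccl5* through the receptor Ccr1 among others, and *Ccl6* and *Ccl9* encode rodent ligands of Ccr1 made by myeloid cells. *Ccl2* and *Ccl12* encode ligands of Ccr2, the receptor by which monocytes leave the marrow and enter tissue. *Cxcl10* encodes an interferon-induced ligand of Cxcr3, a receptor of T cells. *Cxcl16* pairs with Cxcr6, and *Cx3cl1*, which neurons make, pairs with Cx3cr1 on microglia.

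The comparison of MY with MO asks what changes in mutant mice from before symptoms to end stage. Of the 10 chemokines, 9 rose and 0 fell in MO, where 4.11% of all genes rose. The comparison of WO with MO asks how mutant mice at end stage differ from wild-type mice of the old group. The same 9 chemokines were higher in MO, where 4.08% of all genes were higher, and *Cx3cl1* was the member that did not pass in either. These comparisons share the MO mice, so they are not independent of each other. In 9 of 10 members all 5 MO mice lay above all 11 other mice, which held for 7.58% of all genes. The median log2 fold change of the 10 members was 1.54 from MY to MO and 1.80 from WO to MO, and that of all genes was 0.00 in each.

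**Figure D1:**
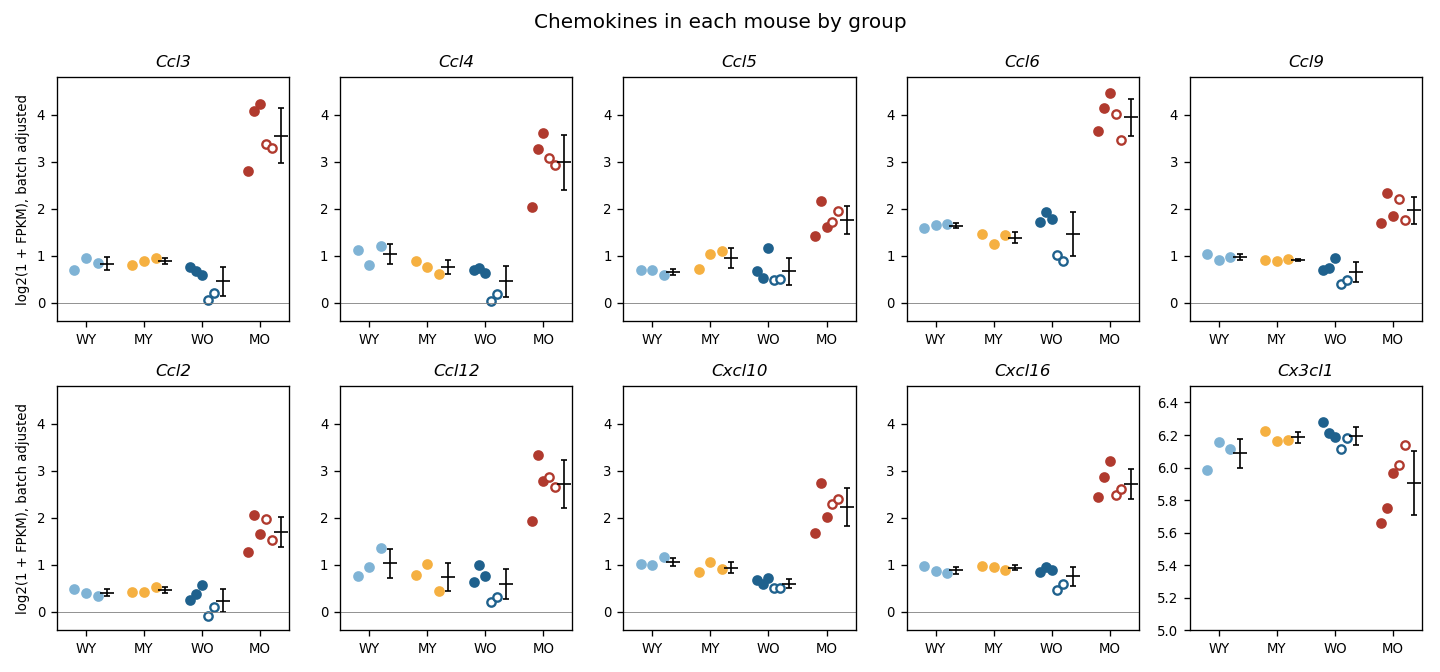
Level of each chemokine in every mouse, as log2(1 + FPKM), by group, with open symbols for batch 2 mice and black bars for the group mean and SD. The MO mice lie above the other mice in 9 panels, and *Cx3cl1* has an axis of its own that does not start at 0.

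*Ccl3*, whose protein draws monocytes and macrophages, had the largest change of the 10 chemokines. In MO1 to MO5 it lay at 2.81, 4.09, 4.22, 3.38 and 3.29 on the log2 scale. It lay at 0.81, 0.89 and 0.94 in MY1 to MY3, at 0.76, 0.67, 0.59, 0.05 and 0.20 in WO1 to WO5, and at 0.68, 0.95 and 0.85 in WY1 to WY3. The lowest MO mouse, MO1, was above the highest other mouse, WY2 at 0.95, by more than the SD of 0.59 among MO mice. *Ccl3* rose by a log2 fold change of 2.67 from MY to MO (SE 0.30, FDR = 0.00064), and was higher in MO than in WO by 3.10 (SE 0.26, 95% confidence interval 2.52 to 3.68, FDR = 2.54e-05). Ranked by log2 fold change among the 18167 genes it was number 22 from MY to MO and number 14 from WO to MO. Because 1 is added before the log is taken, log2 differences understate the ratio of a gene that starts this low: its mean was 11.6 FPKM in MO and 0.844 FPKM in MY, a ratio of 13.7.

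*Ccl4*, the neighbour of *Ccl3* on chromosome 11, ranged from 2.03 to 3.62 on the log2 scale in MO and from 0.02 to 1.20 in the other 11 mice. Its log2 fold change was 2.23 from MY to MO (SE 0.30, FDR = 0.00143) and 2.53 from WO to MO (SE 0.26, FDR = 7.9e-05). *Ccl5*, which T cells and glia can make, moved least of the 9 that rose. In MO1 to MO5 it lay at 1.41, 2.17, 1.60, 1.71 and 1.94 on the log2 scale. It lay at 0.71, 1.04 and 1.11 in MY1 to MY3, at 0.66, 0.53, 1.16, 0.48 and 0.50 in WO1 to WO5, and at 0.69, 0.69 and 0.58 in WY1 to WY3. MO1 exceeded WO3, the highest of the other 11 mice, by less than the SD of 0.30 among MO mice. *Ccl5* rose by a log2 fold change of 0.81 from MY to MO (SE 0.17, FDR = 0.00936) and was higher in MO than in WO by 1.10 (SE 0.16, FDR = 0.000655).

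*Ccl6*, a ligand of Ccr1 made by myeloid cells, was the most abundant of the 9 chemokines that rose. In MO1 to MO5 it lay at 3.65, 4.14, 4.46, 4.01 and 3.47 on the log2 scale. It lay at 1.47, 1.25 and 1.43 in MY1 to MY3, at 1.71, 1.92, 1.77, 1.02 and 0.88 in WO1 to WO5, and at 1.59, 1.65 and 1.68 in WY1 to WY3. The gap between the lowest MO mouse, MO5, and the highest other mouse, WO2, was larger than the SD of any group. *Ccl6* rose by a log2 fold change of 2.56 from MY to MO (SE 0.20, FDR = 0.000253) and was higher in MO than in WO by 2.48 (SE 0.24, FDR = 5.41e-05). *Ccl9*, its neighbour and a ligand of the same receptor, ranged from 1.69 to 2.34 on the log2 scale in MO and from 0.40 to 1.03 in the other 11 mice. Its log2 fold change was 1.06 from MY to MO (SE 0.15, FDR = 0.00177) and 1.32 from WO to MO (SE 0.14, FDR = 0.000105).

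Both members that are ligands of Ccr2 rose. *Ccl2* lay at 1.28, 2.05, 1.66, 1.98 and 1.53 on the log2 scale in MO1 to MO5. It lay at 0.41, 0.42 and 0.53 in MY1 to MY3, at 0.24, 0.37, 0.56, -0.10 and 0.10 in WO1 to WO5, and at 0.47, 0.40 and 0.33 in WY1 to WY3. The value of WO4 is below 0, which FPKM cannot be but values adjusted for batch can. In all, 915 values of the table are below 0 and 1 of them belongs to a member. MO1, the lowest MO mouse, was above WO3, the highest other mouse, by more than the SD of 0.32 among MO mice. *Ccl2* rose by a log2 fold change of 1.24 from MY to MO (SE 0.16, FDR = 0.0013) and was higher in MO than in WO by 1.46 (SE 0.16, FDR = 0.000105). *Ccl12*, which also codes for a ligand of Ccr2, ranged from 1.93 to 3.34 on the log2 scale in MO and from 0.21 to 1.36 in the other 11 mice. Its log2 fold change was 1.98 from MY to MO (SE 0.28, FDR = 0.00173) and 2.13 from WO to MO (SE 0.24, FDR = 0.000112).

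*Cxcl10*, the interferon-induced chemokine, lay at 1.67, 2.73, 2.01, 2.29 and 2.41 on the log2 scale in MO1 to MO5. It lay at 0.84, 1.06 and 0.92 in MY1 to MY3, at 0.68, 0.58, 0.71, 0.49 and 0.50 in WO1 to WO5, and at 1.01, 0.99 and 1.16 in WY1 to WY3. All 5 WO mice were below all 6 young mice, and all 5 MO mice were above them. *Cxcl10* rose by a log2 fold change of 1.29 from MY to MO (SE 0.21, FDR = 0.0032) and was higher in MO than in WO by 1.63 (SE 0.16, FDR = 6.49e-05).

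The members whose proteins are anchored in the membrane parted ways. *Cxcl16*, which also acts as a scavenger receptor on macrophages, lay at 2.43, 2.87, 3.21, 2.48 and 2.62 on the log2 scale in MO1 to MO5. It lay at 0.98, 0.95 and 0.88 in MY1 to MY3, at 0.85, 0.95, 0.88, 0.47 and 0.58 in WO1 to WO5, and at 0.96, 0.87 and 0.82 in WY1 to WY3. The gap between MO1 and the highest other mouse, MY1, was larger than the SD of any group. *Cxcl16* rose by a log2 fold change of 1.78 from MY to MO (SE 0.17, FDR = 0.000319) and was higher in MO than in WO by 1.97 (SE 0.15, FDR = 2.16e-05).

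*Cx3cl1*, the fractalkine gene of neurons, did not rise. It lay at 5.66, 5.75, 5.97, 6.01 and 6.14 on the log2 scale in MO1 to MO5. It lay at 6.22, 6.16 and 6.17 in MY1 to MY3, at 6.28, 6.21, 6.19, 6.12 and 6.18 in WO1 to WO5, and at 5.99, 6.16 and 6.12 in WY1 to WY3. MO5 was inside the range of WO, and MO1, MO2 and MO3 were below every mouse outside MO. Its log2 fold change was -0.28 from MY to MO (SE 0.10, FDR = 0.0853). From WO to MO it was -0.29 (SE 0.08, FDR = 0.0262), which is short of the 1.5-fold minimum. Without MO5 the log2 fold change was -0.34 from MY to MO (FDR = 0.0336) and -0.35 from WO to MO (FDR = 0.0082), still short of that minimum.

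**Figure D2:**
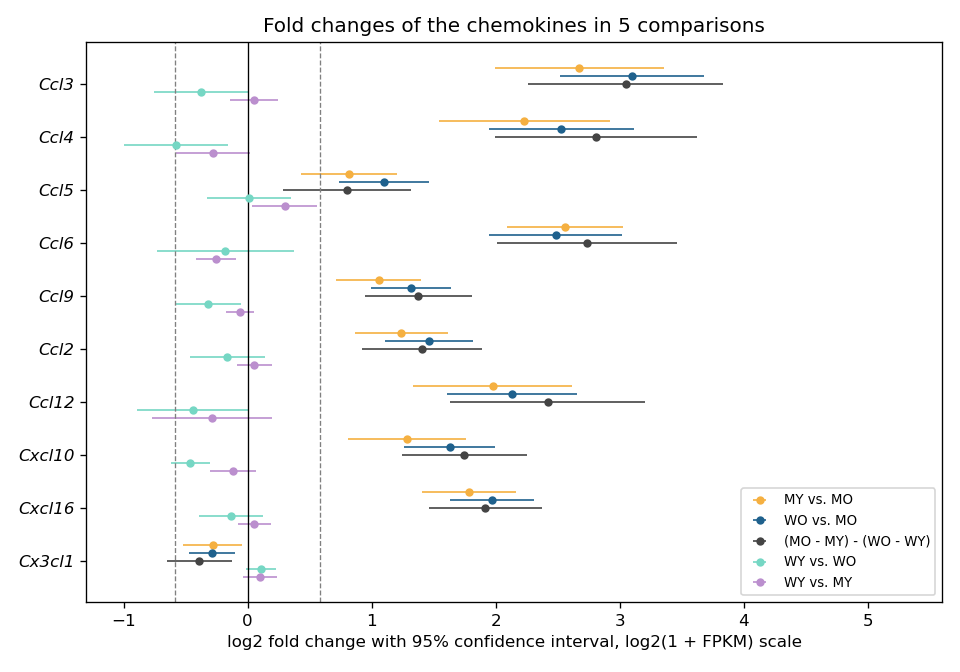
Log2 fold change of each chemokine with its 95% confidence interval in 5 comparisons, on the log2(1 + FPKM) scale. Dashed lines mark 1.5-fold in either direction; 9 chemokines lie to the right in both comparisons with MO and in the difference of age effects, and *Cx3cl1* lies between the lines in MY vs. MO and WO vs. MO.

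Within batches the difference between MO and WO held its direction in all 10 members. For *Ccl3* the mean of MO minus that of WO was 3.03 on the log2 scale in batch 1, with 3 mice a group, and 3.21 in batch 2, with 2 mice a group. For *Ccl6* it was 2.28 in batch 1 and 2.79 in batch 2, and for *Ccl5* 0.94 in batch 1 and 1.34 in batch 2. Of the 9 members that rose, 0 had the larger difference in batch 1. For *Cx3cl1* the difference was -0.43 in batch 1 and -0.07 in batch 2. WO4 and WO5 were the lowest of all 16 mice in 9 of 10 members, against 3.31% of all genes and 39.9% of the 742 genes higher in MO than in WO. Without WO4 and WO5 the log2 fold change from WO to MO was 2.88 for *Ccl3* (FDR = 0.000635), 2.14 for *Ccl6* (FDR = 0.000524) and 0.98 for *Ccl5* (FDR = 0.00987), and the 9 chemokines were all still called.

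The MO mice also differed among themselves. MO1 was the lowest MO mouse in 8 of the 9 chemokines that rose, MO2 the highest in 5 and MO3 the highest in 4. Summed over those 9, the level was 35.3, 73.0, 73.9, 55.5 and 47.4 FPKM in MO1 to MO5. The same sum was 7.69 to 8.21 FPKM in MY, 8.37 to 9.59 FPKM in WY and 6.93, 7.85, 8.28, 2.74 and 3.17 FPKM in WO1 to WO5. *Ccl6* gave 21.3% to 32.7% of the sum in the MO mice and *Ccl3* 16.9% to 23.9%, so the sum follows these genes more than *Ccl2*, which gave 2.91% to 5.29%.

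By median FPKM *Cx3cl1* was the most abundant of the 10 chemokines and *Ccl2* the least in each of the 4 groups. In MO the median FPKM was 61.5 for *Cx3cl1*, 15.1 for *Ccl6*, 9.38 for *Ccl3*, 7.43 for *Ccl4*, 5.92 for *Ccl12* and 5.13 for *Cxcl16*. It was 3.90 for *Cxcl10*, 2.57 for *Ccl9*, 2.28 for *Ccl5* and 2.15 for *Ccl2*. In MO the FPKM range of *Cx3cl1*, 49.5 to 69.4, did not overlap that of *Ccl6*, 10.1 to 21.0, and below them each gene's range overlapped its neighbour's. In WO the median FPKM was 71.8 for *Cx3cl1* and 2.28 for *Ccl6*, and the other 8 lay between 0.184 and 0.806. The place of *Ccl3* by median FPKM went from number 8 in WY and 7 in MY and WO to number 3 in MO.

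The comparison of WY with MY asks whether mutant mice differ before symptoms. By limma 0 of 10 chemokines were called, where 0.0055% of all genes were called, and 2 of 10 had an unadjusted p under 0.05, against 7.16% of all genes. These were *Ccl5*, with a log2 fold change of 0.30 (FDR = 0.666), and *Ccl6*, with -0.26 (FDR = 0.573). In *Ccl5* all 3 MY mice were above all 3 WY mice, and in *Ccl6* all 3 were below. For *Ccl3* the 95% confidence interval was -0.14 to 0.24 on the log2 scale, and for *Ccl2* it was -0.08 to 0.19. The intervals were wider for *Ccl4*, -0.58 to 0.02, and for *Ccl12*, -0.77 to 0.20, which reaches past the 1.5-fold minimum.

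The comparison of WY with WO asks what age does in wild-type transgenic mice. By limma 0 of 10 chemokines were called, where 0.253% of all genes were called, and 3 of 10 had an unadjusted p under 0.05, against 13.5% of all genes, each lower in WO. They were *Ccl4*, with a log2 fold change of -0.58 (FDR = 0.204), *Ccl9*, with -0.32 (FDR = 0.264), and *Cxcl10*, with -0.46 (FDR = 0.0255), which is short of the 1.5-fold minimum. With a pseudocount of 0.5 in place of 1, *Cxcl10* passed, with a log2 fold change of -0.65 (FDR = 0.021). Without WO4 and WO5 the log2 fold change was -0.40 for *Cxcl10* (FDR = 0.062), -0.35 for *Ccl4* (FDR = 0.246) and -0.18 for *Ccl9* (FDR = 0.427).

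Whether the change with age differs between genotypes was tested as MO minus MY, less WO minus WY, in all 16 mice. It was positive and called for 9 of 10 chemokines, where 4.65% of all genes were called in that direction. For *Ccl3* the difference was 3.05 on the log2 scale (SE 0.37, FDR = 9.26e-05), from 2.67 in mutant and -0.37 in wild-type mice. For *Cxcl16* it was 1.92 (SE 0.21, FDR = 6.51e-05), from 1.78 in mutant and -0.13 in wild-type mice. Without WO4 and WO5 the change in wild-type mice was -0.16 for *Ccl3* and 0.01 for *Cxcl16*, and the difference was 2.83 for *Ccl3* (FDR = 0.000578) and 1.77 for *Cxcl16* (FDR = 0.000336). For *Ccl5* it was 0.80 (SE 0.24, FDR = 0.0329), close to the limit of the test. Leaving out any 1 of MO5, MY1, MY2, WO2, WO4, WO5, WY1, WY2 or WY3 brought the FDR of *Ccl5* to 0.0503 to 0.101, with a difference of 0.68 to 0.85. For *Cx3cl1* the difference was -0.39 (SE 0.12, FDR = 0.0403), short of the 1.5-fold minimum.

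Of the 19 chemokine receptors measured, 2 rose and 0 fell from MY to MO, and the same counts held from WO to MO. With a pseudocount of 0.5 in place of 1 the counts that rose were 3 and 4. *Cx3cr1*, the receptor of *Cx3cl1* and a gene of microglia, lay at 4.50, 5.05, 5.25, 4.70 and 4.74 on the log2 scale in MO1 to MO5 and at 3.60 to 3.91 in the other 11 mice. Its log2 fold change was 0.98 from MY to MO (FDR = 0.00271) and 1.14 from WO to MO (FDR = 9.98e-05), while its ligand gene did not rise. *Cxcr4*, a receptor of none of the members, had 1.21 from MY to MO (FDR = 0.0103) and 1.33 from WO to MO (FDR = 0.00156). For *Cxcr4* the mean of MO minus that of WO was 1.82 on the log2 scale in batch 1 and 0.59 in batch 2.

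*Ccr1*, the receptor of *Ccl3*, *Ccl5*, *Ccl6* and *Ccl9*, was low throughout, at 0.34 to 0.59 on the log2 scale in MO and 0.01 to 0.21 in the other mice. Its log2 fold change from WO to MO, 0.35 (FDR = 0.000551), was short of the 1.5-fold minimum, and with a pseudocount of 0.5 *Ccr1* passed at 0.60 (FDR = 0.000262). The other receptor gained was *Ccrl2*, picked out by that setting, at 0.61 from MY to MO (FDR = 0.00426) and 0.63 from WO to MO (FDR = 0.000438). *Ccr2*, *Ccr3*, *Cxcr3* and *Cxcr6* were among 11 receptors at or under 0.5 FPKM in all mice, too low to reach the 1.5-fold minimum. From WO to MO their log2 fold changes were 0.05 (FDR = 0.274), -0.00 (FDR = 0.935), 0.08 (FDR = 0.19) and 0.12 (FDR = 0.0117), in that order.

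**Figure D3:**
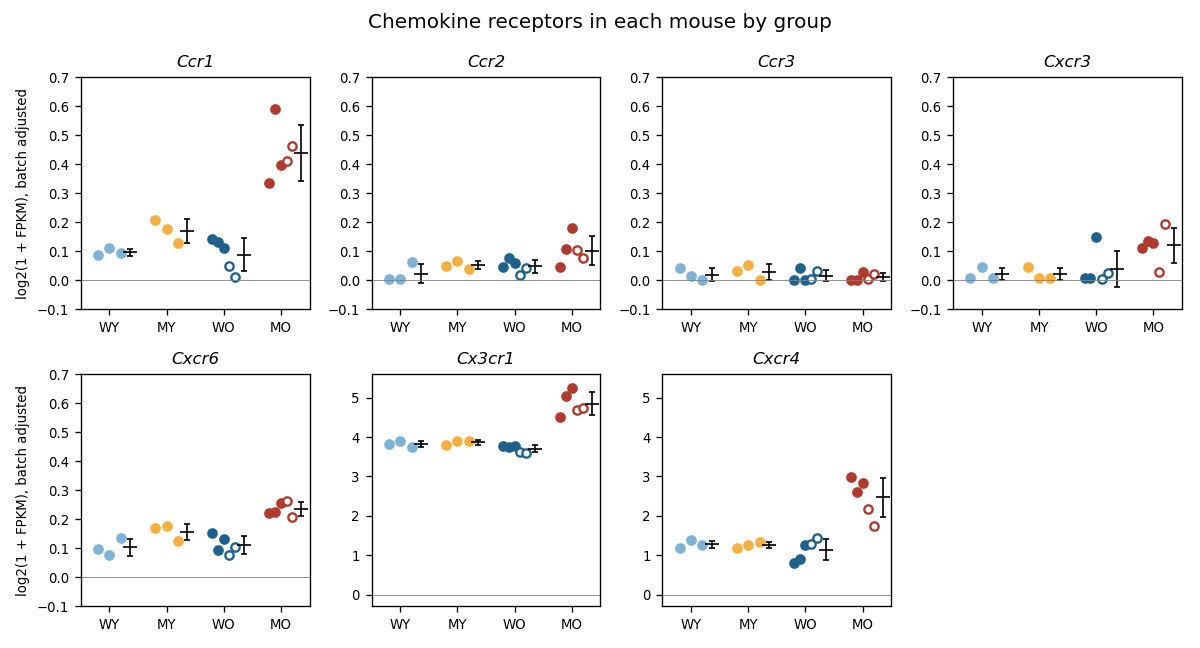
Level in every mouse, as log2(1 + FPKM), of receptors of the members and of *Cxcr4*, by group, with open symbols for batch 2 mice and black bars for the group mean and SD. *Cx3cr1* and *Cxcr4* are higher in all 5 MO mice, and *Ccr2*, *Ccr3*, *Cxcr3* and *Cxcr6* lie low on an axis that ends at 0.7.

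Among the other 19 chemokines in the table, limma called 0 from MY to MO and 0 from WO to MO, with 6 and 7 at an unadjusted p under 0.05. Of all genes, 36.7% and 38.5% had such a p. The 6 were all higher in MO, and of the 7, 5 were higher and 2 lower. With a pseudocount of 0.5 it called *Ccl7* from MY to MO, and *Ccl7* and *Ccl17* from WO to MO. Without MO1 it called *Pf4* from MY to MO and *Ccl7* from WO to MO, and without MO5 *Ccl19* from MY to MO. These genes, *Cxcl13* and *Cxcl14* were picked out after their values were seen: in *Ccl7* and *Cxcl13* all 5 MO mice were above all 11 others, and with the deposited pseudocount both were short of the 1.5-fold minimum. The same order held for the abundant *Cxcl14*, with 5.36 on the log2 scale in the lowest MO mouse and 5.33 in the highest other mouse. Among all genes, 7.58% had all 5 MO mice above all 11 others. The log2 fold change from WO to MO was 0.53 for *Ccl7* (FDR = 0.00571) and 0.35 for *Cxcl13* (FDR = 0.00534). Of 9 proteases that shed or trim chemokines, 4 rose and 1 fell in each comparison with MO. From WO to MO the log2 fold change was 2.14 for *Ctss*, 1.67 for *Mmp12* and 0.80 for *Adam8*. Of 21 genes of signalling below the receptors, 5 rose in each, with 1.26 for *Dock2*, 1.22 for *Rac2* and 1.18 for *Vav1* from WO to MO. Of 18 transcription regulators known to drive chemokine genes, 5 rose in each, with 1.87 for *Irf8*, 1.68 for *Spi1* and 1.28 for *Irf5*. Of 11 interferon-stimulated genes, with *Cxcl10* left out, 9 rose from MY to MO and 8 were higher in MO than in WO, with 1.96 for *Bst2*, 1.33 for *Ifitm3* and 0.99 for *Oasl2*.

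Most markers of microglia rose along with the chemokines. Of 11 microglial genes 8 rose from MY to MO and 7 were higher in MO than in WO, with log2 fold changes from WO to MO of 1.75 for *Aif1* and 1.39 for *Olfml3*. Among the genes not called, *P2ry12* lay at 3.72 to 4.34 on the log2 scale in MO and at 3.74 to 4.13 in WO. *Sall1* lay at 3.48 to 3.73 in MO and at 3.42 to 3.70 in WO. All 5 genes of the microglial list used by the study rose in each comparison, with 3.22 for *Cd68*, 3.05 for *Itgax* and 1.68 for *Ptprc*. *Cx3cr1* and *Itgam* are in both lists. The study took that list from published human genes and reported it higher in MO, so it is not independent evidence. Of 8 astrocyte genes 2 rose from MY to MO and 3 were higher in MO than in WO, with 1.60 for *Gfap*, 0.83 for *Aqp4* and 0.69 for *Aldh1l1*. However, 1 of the 8 was also lower in WO than in WY. On the log2 scale *Aqp4* lay at 7.43 to 7.63 in WY, 6.66 to 7.08 in WO and 7.40 to 7.88 in MO. The summed astrocyte level was 3457 to 4482 FPKM in MO and 1924 to 2517 FPKM in the other mice, with *Gfap* the most abundant. Their part in the rise of the chemokines was not tested, and in bulk tissue more cells and more RNA per cell cannot be told apart.

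Markers of cells that chemokines can draw from the blood were mostly too low to be judged. A gene at or under 0.5 FPKM in all mice can hardly reach the 1.5-fold minimum on the log2(1 + FPKM) scale, so that it was not called says nothing about it. Unadjusted counts are to be read against all genes, of which 36.7% from MY to MO and 38.5% from WO to MO had an unadjusted p under 0.05. Of 7 monocyte genes limma called 0 from MY to MO and 0 from WO to MO, with 1 and 3 at an unadjusted p under 0.05, all higher in MO. *Ly6c2*, *Ccr2*, *Plac8* and *Chil3* were at or under 0.5 FPKM in all mice. Of 9 genes of T and NK cells limma called 0 in each, with 2 and 5 at an unadjusted p under 0.05, all higher in MO, and 8 of the 9 were at or under 0.5 FPKM in all mice, where a call could hardly be made. Their summed level, with *Lck* the most abundant, was 1.11 to 1.55 FPKM in MO and 0.438 to 0.852 FPKM in the other mice. Of 3 B cell genes and 5 dendritic cell genes limma called 0 in each, with 1 and 2 of the B cell genes and 1 and 2 of the dendritic cell genes at an unadjusted p under 0.05, and 3 of the 5 dendritic cell genes and 1 of the 3 B cell genes were too low for a call. All of these dendritic cell genes with an unadjusted p under 0.05, and 1 of the 2 B cell genes from WO to MO, were lower in MO. Of 8 neutrophil genes 1 rose in each comparison, *Csf3r* from WO to MO at an FDR of 2.48e-05, while the median log2 fold change of the list was 0.01 from MY to MO and -0.32 from WO to MO, where WO2 had a summed level of 39.8 FPKM against 5.44 to 10.8 in the other WO mice. Of 7 genes of border macrophages 1 rose in each, *Ms4a7* with 1.90. Counting it, 4 of the 7 were higher in MO at an unadjusted p under 0.05 in each comparison. In this list 3 genes were at or under 0.5 FPKM in all mice, too low for a call. How many entering cells could be seen in whole spinal cord at such levels was not estimated.

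Some neuronal genes went the other way. Of 12 neuronal genes 3 fell in each comparison, with log2 fold changes from WO to MO of -0.78 for *Slc6a5*, -0.75 for *Nefl* and -0.70 for *Nefm*. In each, 10 of the 12 were lower at an unadjusted p under 0.05, and of all 18167 genes 143 fell from MY to MO and 94 were lower in MO than in WO. Of 7 motor neuron genes 0 were called by limma from MY to MO, with 5 at an unadjusted p under 0.05, and 1 was lower in MO than in WO, *Chat* with -0.67, while 3 of the 7 were called lower in the difference of age effects. Of 7 oligodendrocyte genes 3 fell from MY to MO and 1 was lower in MO than in WO, but 2 were also lower in WO than in WY and limma called 0 of them in the difference of age effects, with 2 at an unadjusted p under 0.05. In this list *Mbp* was at 39.9 FPKM in WO4 against 5480 to 19070 FPKM in the other WO mice. In MO it was at 4571 to 4838 FPKM in batch 1 and at 17720 and 18060 FPKM in batch 2, and the reason was not tested. The summed neuronal level, with *Snap25* the most abundant, was 3093 to 3680 FPKM in MO and 3896 to 4940 FPKM in the other mice; *Cx3cl1*, which neurons make, changed by less than the 1.5-fold minimum. By limma 0 genes were called in either comparison in the lists for blood (5 genes), endothelium (6), meningeal fibroblasts (7), Schwann cells (6), sensory neurons (5), spinal cord position (8), forebrain (4), sex (5) and mouse *Pfn1* (1). At an unadjusted p under 0.05 from WO to MO these lists had, in the same order, 1, 6, 0, 2, 1, 3, 0, 0 and 1 genes, and from MY to MO 0, 2, 1, 2, 1, 2, 0, 0 and 1. The 6 endothelial genes from WO to MO and the 2 from MY to MO were all lower in MO.

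The genes with the nearest profile to each member over the 16 mice were found by the root mean square difference of mean-centred log2 values. For *Ccl2* the nearest were *Ccl9* at 0.122, *Fcgr1* at 0.153 and *Hcar2* at 0.156, and for *Ccl9* they were *Ccl2* at 0.122, *Ptx3* at 0.136 and *Siglecf* at 0.165. For *Ccl3* they were *Itgax* at 0.176, *Trem2* at 0.292 and *S100a4* at 0.293, and *Itgax* and *Trem2* are genes of reactive microglia. *Ccl4* had *Lpl* at 0.229, *Fcrls* at 0.238 and *Ch25h* at 0.248. *Ccl5* had *Gpr34* at 0.173, *Gpr84* at 0.181 and *Tubb6* at 0.185. *Ccl6* had *Vim* at 0.215, *Fcer1g* at 0.219 and *Capg* at 0.230. *Ccl12* had *Ly86* at 0.252, *Ccl4* at 0.275 and *Irf8* at 0.284. *Cxcl10* had *Dhrs1* at 0.189, *Ccl2* at 0.198 and *Tagln* at 0.199. *Cxcl16* had *Slc15a3* at 0.105, *Grn* at 0.107 and *Ctsh* at 0.114, which belong to endosomes and lysosomes. *Cx3cl1* had *Tlr5* at 0.0748, *Mapt* at 0.0778 and *Synj2* at 0.0782. A near profile shows that the values of a pair of genes moved by like amounts in these mice, not that they act together.

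Of the 10 chemokine genes 8 lie on chromosome 11, several of them side by side (GENCODE, GRCm38). *Ccl2* at chr11:82035571-82037453 and *Ccl12* at chr11:82101845-82103400 are on the plus strand, with *Ccl7* and *Ccl11* between them. From WO to MO the log2 fold change was 1.46 for *Ccl2* and 2.13 for *Ccl12*, while it was 0.53 for *Ccl7* and 0.10 for *Ccl11*, neither called. Further along are *Ccl5* at chr11:83525778-83530518, *Ccl9* at chr11:83572919-83578636, *Ccl6* at chr11:83587882-83593087 and *Ccl3* at chr11:83647844-83649355, all on the minus strand. *Ccl4* follows at chr11:83662584-83664683 on the plus strand. *Cxcl16* is at chr11:70453983-70459984 on the minus strand, *Cxcl10* at chr5:92346638-92348889 on the minus strand and *Cx3cl1* at chr8:94772009-94782427 on the plus strand.

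**Figure D4:**
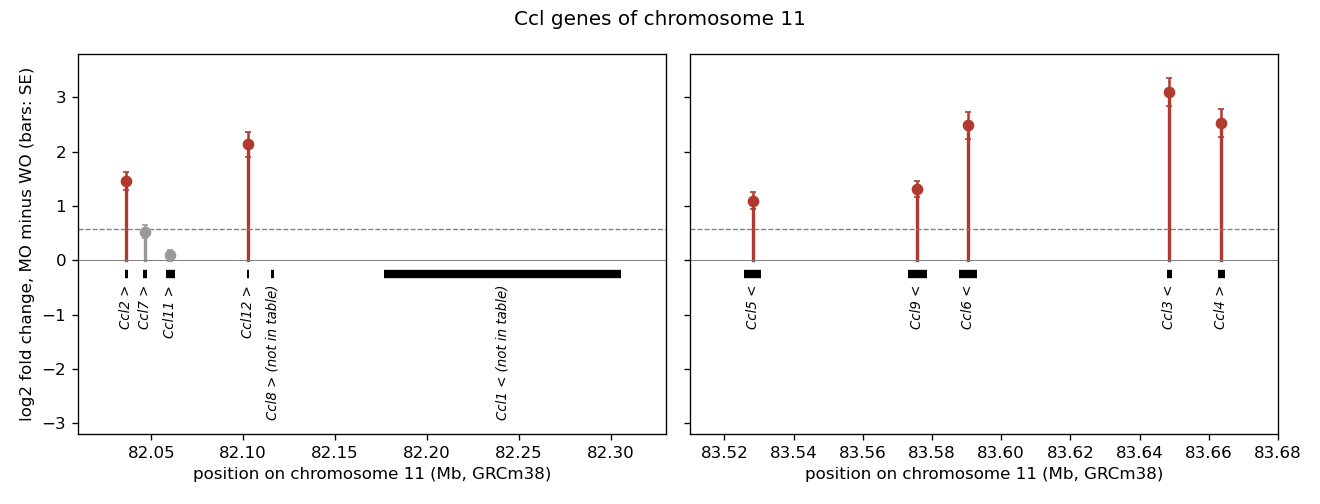
Log2 fold change from WO to MO, with its SE, of the Ccl genes along chromosome 11, in Mb of GRCm38. Red marks called members, grey marks genes that were not called, the dashed line marks 1.5-fold, and < and > give the strand.

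Some of these chemokines resemble each other, and the 3 pairs with the largest share of identical bases, over the length of the shorter sequence, lie near each other on chromosome 11. In their coding sequence *Ccl6* and *Ccl9* were identical at 241 of 334 aligned bases (72.2%), *Ccl3* and *Ccl4* at 191 of 270 (70.7%) and *Ccl2* and *Ccl12* at 211 of 309 (68.3%). Gaps at the ends carried no penalty, so many other pairs were placed on a short overlap, such as *Ccl2* and *Ccl9*, over 70 bases. A short overlap does not show that a pair is unlike. *Ccl3* and *Ccl9* were placed over 8 bases, while *Ccl4* and *Ccl9* aligned over 264 bases (68.9% identical). No stretch of 50 bases in the transcripts of a member was found in a transcript of another member, so reads of at least that length can be told apart between members. The cleaned reads of the study could be shorter than that, and shorter stretches were not checked. *Cxcl16* shared 16.9% of its 50-base stretches with *Zmynd15*, which overlaps it on the opposite strand, and *Cxcl10* shared 3.59% with *Art3*, also on the opposite strand. *Zmynd15* had a log2 fold change of 0.46 from WO to MO (FDR = 0.000971) and *Art3* one of -0.03 (FDR = 0.916), both looked up because of the overlap. From MY to MO it was 0.45 for *Zmynd15* (FDR = 0.00566) and 0.43 for *Art3* (FDR = 0.11). *Ccl9* shared 1.97% with a repeat found in 463 genes, and the other 7 members shared 0%. *Ccl6* overlaps the non-coding gene *E230016K23Rik* on the opposite strand, whose log2 fold change was 0.04 (FDR = 0.478), and *Ccl2* overlaps *Gm17268*, which is not in the table.

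The promoters of 6 of 10 members were at hand from RefSeq on build GRCm38.p6, as the 250 bases before the start of transcription and the 50 bases from it on, and those of *Ccl2*, *Ccl4*, *Ccl5* and *Cxcl16* were not. Both strands were searched for the NF-κB consensus, the interferon response element, the AP-1 site TGANTCA, the TATA box TATAAA and the PU.1 core GAGGAAG, which were chosen with the values known. Among 32851 promoters these occur in 8.46%, 3.44%, 7.81%, 13.6% and 13.6%, and among the 6 members in 2, 1, 2, 3 and 1, in that order. Each sequence is written in the direction of its gene with the matches in capitals, and a match describes the sequence and does not show that a factor binds. The promoter of *Cxcl10* is at chr5:92348840-92349139 on the minus strand. It has the interferon response element 213 bases before the start, the NF-κB consensus at 159, 104 and 103 bases, the matches at 104 and 103 overlapping, and an AP-1 site at 74 bases.
Cxcl10: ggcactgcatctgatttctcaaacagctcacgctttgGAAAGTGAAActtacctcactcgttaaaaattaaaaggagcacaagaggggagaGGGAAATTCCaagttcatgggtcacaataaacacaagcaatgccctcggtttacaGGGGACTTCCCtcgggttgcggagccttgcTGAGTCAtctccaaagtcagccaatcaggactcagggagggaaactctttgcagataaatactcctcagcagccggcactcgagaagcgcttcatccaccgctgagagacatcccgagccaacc

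The promoter of *Cx3cl1*, the member that did not rise, is at chr8:94771930-94772229 on the plus strand. It has a TATA box 6 bases before the start and the PU.1 core, read on the other strand, 67 bases before it. *Ccl12* has a TATA box 31 bases before its start, and *Ccl3* and *Ccl6* have none of the motifs.
Cx3cl1: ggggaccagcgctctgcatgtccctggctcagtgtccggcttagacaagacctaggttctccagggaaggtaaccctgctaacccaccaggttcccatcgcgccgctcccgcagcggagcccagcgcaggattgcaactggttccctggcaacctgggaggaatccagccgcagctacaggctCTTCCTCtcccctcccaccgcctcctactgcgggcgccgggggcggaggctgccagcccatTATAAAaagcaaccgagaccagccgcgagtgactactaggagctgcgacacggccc

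The promoters of *Ccl6* and *Ccl9* resemble each other near the start of transcription. That of *Ccl6* is at chr11:83593038-83593337 on the minus strand and that of *Ccl9* at chr11:83578587-83578886 on the minus strand. Bases 192 to 265 of the *Ccl6* promoter and bases 233 to 299 of the *Ccl9* promoter aligned, with 58 of 67 aligned bases identical (86.6%). *Ccl9* has the NF-κB consensus 35 bases before the start, read on the other strand, an AP-1 site at 53 bases, and the TATA box at 92 bases and, on the other strand, at 94 and 224 bases. The motifs in capitals in *Ccl9* are absent from the promoter of *Ccl6*. The log2 fold change from WO to MO was 2.48 for *Ccl6* and 1.32 for *Ccl9*, and any link to the motifs was not tested.
Ccl6: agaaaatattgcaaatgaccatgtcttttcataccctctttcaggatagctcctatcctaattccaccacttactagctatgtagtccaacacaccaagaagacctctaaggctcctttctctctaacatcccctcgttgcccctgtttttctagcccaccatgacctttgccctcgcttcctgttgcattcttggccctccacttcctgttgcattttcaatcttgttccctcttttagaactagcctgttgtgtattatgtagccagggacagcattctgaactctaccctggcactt
Ccl9: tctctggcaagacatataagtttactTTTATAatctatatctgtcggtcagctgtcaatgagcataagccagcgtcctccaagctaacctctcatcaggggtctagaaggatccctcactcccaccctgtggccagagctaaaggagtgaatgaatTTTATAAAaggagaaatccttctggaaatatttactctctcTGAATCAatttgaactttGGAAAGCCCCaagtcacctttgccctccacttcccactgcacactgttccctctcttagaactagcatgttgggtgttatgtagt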

How the data were processed

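RNA-Seq of the spinal cord of 16 mice was read from the authors' table of 18167 genes. The deposited values are log2 of 1 + FPKM, adjusted by the authors with parametric ComBat over 2 library batches; the covariates of that step are not stated. Before that, reads had been filtered (Trimmomatic), placed on the mm10 genome (TopHat) and summed to FPKM per gene (Cufflinks), with versions not given in the sources used here. The TruSeq Stranded kit marks the strand, and whether counting used it is not given in those sources. The authors had removed genes at 0 in at least 8 of the 16 mice, so a gene read in the MO mice alone would be absent. The table holds no counts, and the number of fragments behind a gene was not estimated. All columns were used (0 left out).

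Each comparison was fitted on the mice of its 2 groups, and the difference of age effects on all 16 mice, with limma 3.58.1 in R 4.3.3, two-sided, on the deposited values, after the procedure was tested on simulated data. A gene was called at a Benjamini-Hochberg FDR over all genes of at most 0.05 and a change of at least 1.5-fold, with no filter on level. FPKM was obtained as 2 to the power of the value, less 1, for description. Sequence comparisons used Biopython 1.88, and tables Python 3.11.15 with pandas 2.3.3. Whether mice are paired is not stated, so no pairing was used.

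The 10 members and all lists were chosen with earlier results of these data known. Named are all 10 members, every receptor of a member, the 3 called genes with the largest log2 fold change from WO to MO of each list, and the 3 genes nearest in profile to each member. The lists are chemokine receptors, other chemokines, proteases, receptor signalling, upstream regulators, interferon targets, and markers of microglia, border macrophages, monocytes, neutrophils, T and NK cells, B cells, dendritic cells, blood, astrocytes, neurons, motor neurons, oligodendrocytes, endothelium, meningeal fibroblasts, Schwann cells, sensory neurons, spinal cord position, forebrain, sex and the gene of the transgene. Some genes that this rule names are left out of the text and are still counted in their lists. Genes named outside this rule were chosen after their values were seen or because they overlap a member.

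Alternatives were the mice of batch 1 alone, batch as a term, a pseudocount of 0.5, genes with a mean of at least 1, all 4 groups in 1 fit, quantile normalization, a replicate block, each mouse left out in turn and the FDR without the fold minimum. Leaving out WO4 and WO5 was chosen after the data were seen.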

Additional observations from a re-analysis of the deposited data

Results flagged for a closer look

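The change with age differed between genotypes, by a test of MO minus MY less WO minus WY, in 9 of the 10 chemokines. On the log2 scale the difference was 3.05 for *Ccl3*, 2.81 for *Ccl4*, 2.74 for *Ccl6*, 2.42 for *Ccl12* and 1.92 for *Cxcl16*. It was 1.75 for *Cxcl10*, 1.41 for *Ccl2*, 1.38 for *Ccl9* and 0.80 for *Ccl5*. That of *Ccl5* was not called without WO4 and WO5 (0.69, FDR = 0.105), in batch 1 alone (0.65, FDR = 0.176), after quantile normalization (0.69, FDR = 0.0596) or without any 1 of MO5, MY1, MY2, WO2, WO4, WO5, WY1, WY2 and WY3 (0.68 to 0.85, FDR = 0.0503 to 0.101). In mutant mice these 9 moved from the young to the old group by 0.81 for *Ccl5* to 2.67 for *Ccl3*, and in wild-type mice by -0.58 for *Ccl4* to 0.01 for *Ccl5*. Without WO4 and WO5 the wild-type changes ran from -0.40 for *Cxcl10* to 0.16 for *Ccl6*, which had been -0.18, so their direction in part rests on these 2 mice. The reason for the difference was not tested.

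WO3 stood apart from the other WO mice in *Ccl5*, at 1.16 on the log2 scale against 0.48 to 0.66. The gap took a share of 0.727 of the range of the group. Of 20 groups of 5 mice examined this was the 1 that stood out, and chance gives about 1 in 20. The reason was not tested.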

How the results depend on the processing

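The 10 chemokines kept their direction, and stayed called or not called, in every alternative that kept the fold minimum and gave a value for them, in MY vs. MO (149 of 149 results) and WO vs. MO (179 of 179). In the genes with a mean of at least 1, *Ccl2* was not tested. In MY vs. MO, batch 1 alone, batch as a term and the replicate block gave the same log2 fold changes, 2.82 for *Ccl3* in each. The young mutant mice were all of batch 1, so these are not separate checks of the size of the change. In the difference of age effects 217 of 229 results kept theirs, and 12, all of *Ccl5*, no longer passed, with an FDR of 0.0503 to 0.176. No result reversed.

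By the FDR alone, without the fold minimum, 4646 genes were called in MY vs. MO, 5075 in WO vs. MO, 204 in WY vs. WO and 3210 in the difference of age effects, as follows from dropping a criterion; 10 members were then called in WO vs. MO and in the difference of age effects, *Cx3cl1* being added, and 1, *Cxcl10*, in WY vs. WO, which also had 1, again *Cxcl10*, with a pseudocount of 0.5. The 46 genes of WY vs. WO became 73 in batch 1 alone, for this comparison the same fit as leaving out WO4 and WO5. They became 80 with batch as a term, and 7 to 64 with each mouse left out in turn, 7 being without WY3. The 1 gene of WY vs. MY became 2 among genes with a mean of at least 1, 4 with all groups in 1 fit, and 1 to 5 with each mouse left out in turn. With the replicate number as a block, 9 members and 1108 genes were called in MY vs. MO and 9 members and 840 genes in WO vs. MO. The causes of these shifts were not tested.

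The table gives no counts, so no limit from depth was computed for the low genes, *Ccl2* and the receptors among them.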
